A study of Mus musculus with 6 samples.

Results

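The genes examined were regulators and lipid-handling products of the adipocyte program, read in primary mouse embryonic fibroblasts (pMEFs) with and without the histone acetyltransferase HAT1. They were chosen by symbol from a list of 10 genes: the transcription factors Pparg, Cebpa, Cebpb, Cebpd and Ebf2, and the lipid genes Fabp4, Lpl, Plin2, Adipoq and Cd36. The deposited table of 17512 genes held 9 of them. Adipoq had no row and was not analysed here. All 9 passed the filter on low counts, which kept 14773 genes.

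RNA-seq was done on 6 lines. The HAT1 WT group held 3 lines (36, 47 and 78) with an intact Hat1 gene, and the HAT1 KO group held 3 lines (33, 41 and 72) in which Hat1 was knocked out. All were of the C57bl6 background and were grown in DMEM with fetal bovine serum and antibiotics, and the labels named no adipogenic hormone mix in either group. Each line came from mid-gestation embryonic tissue freed of internal organs, dissociated and plated without sorting, so a line may hold other cell types beside fibroblasts. The labels did not say how many embryos stood behind a line, and the p-values below measure the spread between these lines. In bulk RNA, fewer cells of a type and less RNA per cell cannot be told apart.

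Fibroblasts of the embryo can be turned into adipocytes, and the order of events is well known. C/EBPβ and C/EBPδ are made first and switch on PPARγ and C/EBPα, which then maintain each other and turn on the genes of lipid storage; EBF2 marks adipocyte precursors and acts with PPARγ in brown fat. Among the targets, LPL frees fatty acids from circulating triglyceride, CD36 takes them up, FABP4 carries them in the cytoplasm, PLIN2 coats the lipid droplet and adiponectin (Adipoq) is a hormone of mature adipocytes. Several of these genes are also at work in macrophages, where C/EBPα is a factor of myeloid development.

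Library totals lay between 67720628 and 98786746 counts. Levels are given as CPM, the counts of a gene as a share of its library on the usual scale, after TMM scaling, which makes libraries of different composition comparable, and as mean ± SD over 3 lines. Hat1 itself was at 20.2 ± 2.80 CPM (n = 3) in HAT1 WT and 10.2 ± 0.146 CPM (n = 3) in HAT1 KO, with an adjusted p of 0.0376 in edgeR's quasi-likelihood test. Reads of the targeted gene thus remained at 50.4% of the HAT1 WT mean, and counts per gene do not show which exons they came from. KO line 72 stood apart, with a mean Pearson correlation of 0.971 with the other libraries over the tested genes, against 0.983 to 0.987 for the rest. The Y-linked genes Uty, Kdm5d, Ddx3y and Eif2s3y summed to 183 CPM in WT line 36, 159 in WT line 47, 2.33 in WT line 78 and 0.0518 to 0.118 in the HAT1 KO lines, and Xist was at 1.25, 14.6, 298 and 146 to 191 CPM in the same order. The genotypes therefore differed in sex-linked expression, and WT line 78 resembled the HAT1 KO lines in it. The labels placed the libraries on lanes 6 (WT line 47, KO lines 33 and 72), 7 (WT line 78, KO line 41) and 8 (WT line 36).

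Promoter sequences are shown for 4 members, Cebpa and Cd36 because they had the smallest p-values in the comparison below, and Plin2 and Cebpb for contrast. They are the 250 bases before 1 annotated start of each gene, from RefSeq on GRCm38.p6, 5′ to 3′ on the strand of the gene. Capitals mark matches, on either strand, to 6 motifs. The C/EBP motif was searched as TTNCNNAA and the half-site bound by nuclear receptors as AGGTCA. The box named CCAAT was searched by those letters, and the TATA box of core promoters as TATAAA. The E-box of helix-loop-helix proteins was searched as CACGTG, and the GC box of SP family proteins as GGGCGG.
Cebpa promoter, chr7:35119043-35119292, plus strand: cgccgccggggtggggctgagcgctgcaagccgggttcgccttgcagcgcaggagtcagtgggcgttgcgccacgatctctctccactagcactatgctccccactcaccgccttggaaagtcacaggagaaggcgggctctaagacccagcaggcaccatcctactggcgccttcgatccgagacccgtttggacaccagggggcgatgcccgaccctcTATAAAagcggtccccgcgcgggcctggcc
Cd36 promoter, chr5:17835897-17836146, minus strand: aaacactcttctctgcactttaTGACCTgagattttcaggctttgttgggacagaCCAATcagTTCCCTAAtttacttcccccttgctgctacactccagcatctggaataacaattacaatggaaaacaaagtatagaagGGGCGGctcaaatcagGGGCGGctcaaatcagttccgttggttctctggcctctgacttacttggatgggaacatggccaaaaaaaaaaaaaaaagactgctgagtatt
Plin2 promoter, chr4:86670060-86670309, minus strand: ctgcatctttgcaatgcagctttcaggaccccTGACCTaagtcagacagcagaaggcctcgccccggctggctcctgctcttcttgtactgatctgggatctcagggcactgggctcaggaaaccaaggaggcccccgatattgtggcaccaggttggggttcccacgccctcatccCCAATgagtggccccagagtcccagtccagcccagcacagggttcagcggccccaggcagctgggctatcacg
Cebpb promoter, chr2:167688665-167688914, plus strand: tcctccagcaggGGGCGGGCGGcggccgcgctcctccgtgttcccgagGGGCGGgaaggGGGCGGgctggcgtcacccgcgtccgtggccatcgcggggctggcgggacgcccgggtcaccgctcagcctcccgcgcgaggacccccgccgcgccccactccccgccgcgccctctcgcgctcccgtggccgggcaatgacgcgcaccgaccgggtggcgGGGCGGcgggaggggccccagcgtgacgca

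The windows differed in base composition and in what they held. The Cebpa window had 66.4% G and C and a single match, a TATA box from 30 to 25 bases before the start. The Cd36 window was poorer in G and C, at 43.2%, and held a C/EBP match from 187 to 180 bases before the start, a half-site from 228 to 223, a CCAAT box from 195 to 191 and 2 GC boxes. In the Plin2 window (61.6% G and C) a half-site lay from 218 to 213 and a CCAAT box from 73 to 69 bases before the start. The Cebpb window was the richest of these in G and C, at 81.6%, and its only matches were 5 GC boxes, of which the first pair overlap by 2 bases. The median over 32851 windows of the same length was 52.4%. Of all those windows, 36.8% held the C/EBP motif, 14% the half-site, 33.8% the CCAAT box, 12.4% the TATA box, 6.02% the E-box and 32.7% the GC box. The Cd36 window belongs to 1 start within the annotated gene, while the counts are summed over the whole gene. For Lpl, Fabp4, Cebpd and Ebf2 no window was read.

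The comparison of the genotypes asked whether these genes differ between fibroblasts with and without HAT1. Cebpa stood at 50.1% of the HAT1 WT mean in the HAT1 KO lines, Cd36 was 3.53-fold lower and Lpl 2.21-fold lower, each without overlap between the lines of the genotypes. Cebpb, Cebpd, Pparg, Fabp4 and Ebf2 were not separated from HAT1 WT by any test here with all 6 lines, and Plin2 lay between. No member passed an adjusted p of 0.05 in edgeR's quasi-likelihood test with Benjamini-Hochberg adjustment over all tested genes (0 of 9), a threshold that 0.528% of all tested genes passed. With the same threshold DESeq2 called 3 members (Cebpa, Lpl and Cd36), among 5.88% of all tested genes, and voom with sample quality weights called 2 (Cebpa and Cd36), among 1.81%. By the study's own thresholds, 1.5-fold or more together with an unadjusted p under 0.05, 3 of 9 were lower (Cebpa, Lpl and Cd36) and 0 were higher. Without KO line 72 these counts were 3 lower and 1 higher. Among all tested genes 4.62% were lower and 1.5% higher by those thresholds. An unadjusted p under 0.05 with a lower level in HAT1 KO was found for 4 of 9, against 8.77% of all tested genes. The HAT1 KO lines lay wholly below the HAT1 WT lines for 3 of 9 members and wholly above them for 0 of 9. Among all tested genes 12.4% and 9.59% did. The members were chosen with earlier results of these data known, so their counts beside these shares are a description only. The median log2 fold change of the members was -0.026, beside 0.0085 over all tested genes. With all 6 lines, 5 fitted changes were below 0 and 4 above. Without KO line 72 those of Pparg (-0.36), Cebpd (-0.14) and Fabp4 (-0.35) were below 0 too, and Ebf2 (1.47) alone was above. The median log2 deviation of the members from the HAT1 WT mean was -0.34, -0.32 and -0.23 in KO lines 33, 41 and 72. In WT lines 36, 47 and 78 it was 0.030, 0.022 and -0.070.

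**Figure D1:**
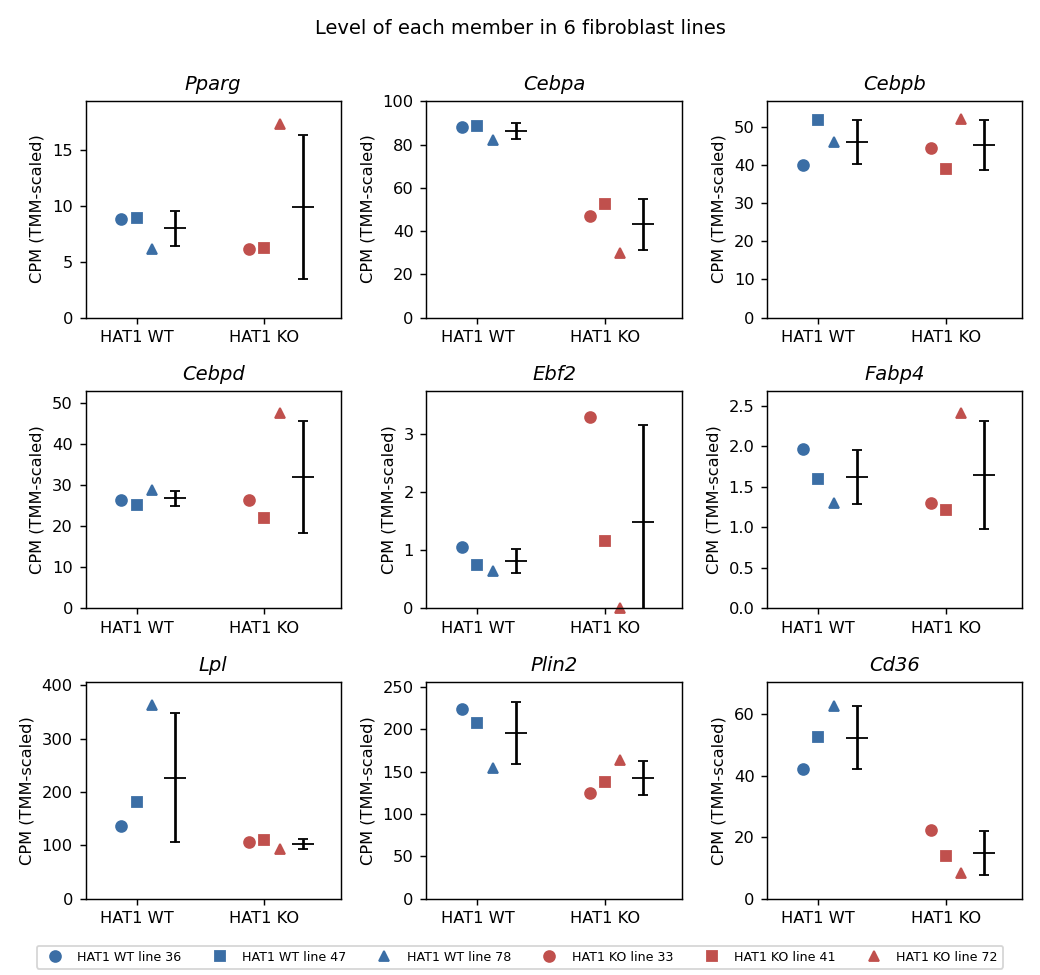
Level of each member in TMM-scaled CPM (vertical axis, linear, from 0) in the 3 HAT1 WT and 3 HAT1 KO lines (points, 1 symbol per line), with the mean and SD of each genotype (black bar, cut at 0 for Ebf2). The HAT1 KO points of Cebpa, Lpl and Cd36 all sit below the HAT1 WT points, and KO line 72 is the highest point for Pparg, Cebpd and Fabp4.

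**Figure D2:**
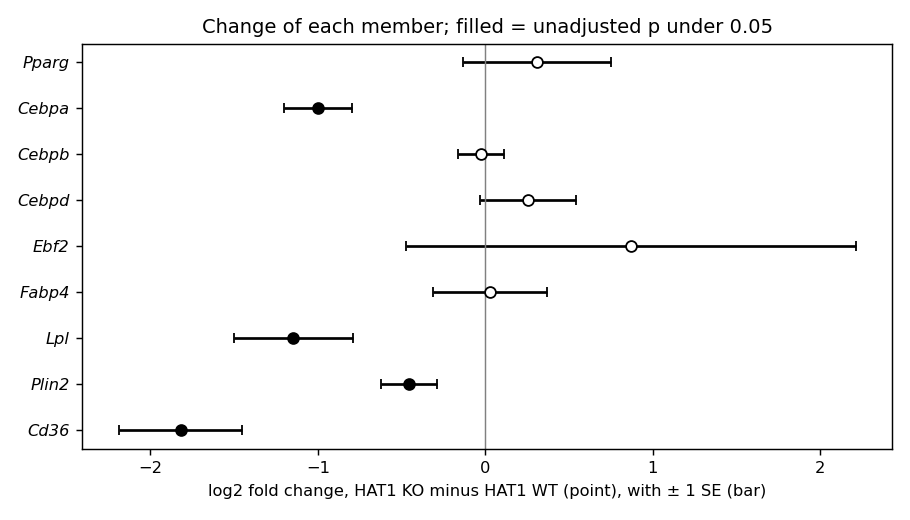
Log2 fold change of each member, HAT1 KO minus HAT1 WT (horizontal axis), from edgeR's quasi-likelihood fit, with 1 standard error on each side (bars); filled points have an unadjusted p under 0.05. The 4 filled points, Cebpa, Lpl, Plin2 and Cd36, lie on the lower side, and Ebf2 has the widest bar.

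Among the transcription factors, Cebpa (ENSMUSG00000034957, chr7:35119293-35121928 of GRCm38, plus strand) encodes a protein that turns on genes of lipid storage with PPARγ. Cebpa was at 88.1, 88.7 and 82.1 CPM in WT lines 36, 47 and 78. In KO lines 33, 41 and 72 it was at 47.2, 52.5 and 30.0 CPM. The HAT1 WT lines were tightly grouped and every HAT1 KO line lay well below them, line 72 lowest. The means were 86.3 ± 3.64 CPM (n = 3) and 43.2 ± 11.7 CPM (n = 3), a log2 fold change of -0.998 (SE 0.20, unadjusted p = 0.00226, adjusted p = 0.113 in edgeR's quasi-likelihood test). The exact permutation test over lines gave p = 0.1, the smallest a comparison of 3 with 3 lines allows. Without KO line 72 the log2 fold change was -0.78 and the edgeR adjusted p was 0.047. The difference was -1.20 on the log2 scale within lane 6 and -0.65 within lane 7. Against WT line 78 alone it was -0.93. With the Y-linked level as a covariate in edgeR it was -0.87 with an unadjusted p of 0.0724.

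The early factors behaved otherwise. Cebpb (ENSMUSG00000056501, chr2:167688915-167690418, plus strand), the activator made first in adipogenesis, was at 40.1, 51.7 and 46.0 CPM in the HAT1 WT lines and at 44.5, 38.9 and 52.0 CPM in the HAT1 KO lines, given in the order used above. The ranges overlapped almost wholly, with a log2 fold change of -0.026 (SE 0.14, edgeR adjusted p = 0.949). Cebpd (ENSMUSG00000071637, chr16:15887286-15891031, plus strand), its partner in the early phase, was at 26.5, 25.2 and 28.7 CPM in HAT1 WT and at 26.4, 21.9 and 47.5 CPM in HAT1 KO. KO line 72 alone stood above the others, and the fold change was 0.25 on the log2 scale (SE 0.29, edgeR adjusted p = 0.730) with it and -0.14 without it. Exons of Cebpb overlap Tmem189 on the other strand over 312 bases, and those of Cebpd overlap Spidr over 562 bases, so with strand use unknown some of these counts may belong to the neighbours.

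The C/EBP factors therefore stood in other proportions to each other in the 2 genotypes. The ratio of Cebpa to Cebpb in CPM was 2.20, 1.72 and 1.79 in the HAT1 WT lines and 1.06, 1.35 and 0.577 in the HAT1 KO lines. The ratio of Cebpa to Cebpd was 3.33, 3.53 and 2.86 in HAT1 WT and 1.79, 2.40 and 0.631 in HAT1 KO. Every HAT1 KO ratio lay below every HAT1 WT ratio in both cases, which is given as a description since the ratios were chosen with the levels known.

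Pparg (ENSMUSG00000000440, chr6:115360951-115490399, plus strand), the nuclear receptor at the centre of fat cell formation, was at 8.86, 8.93 and 6.13 CPM in HAT1 WT and at 6.12, 6.20 and 17.3 CPM in HAT1 KO. KO lines 33 and 41 lay beside WT line 78, the lowest of its group, and KO line 72 was the highest of all. The means, 7.97 ± 1.59 CPM (n = 3) and 9.86 ± 6.42 CPM (n = 3), did not differ beyond that spread (log2 fold change 0.31, SE 0.44, edgeR adjusted p = 0.797). Without KO line 72 the sign turned, to -0.36 on the log2 scale with an unadjusted edgeR p of 0.119. The level of Pparg rested on 419 to 1333 counts per library, so counting error was small beside the spread between lines.

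Ebf2 (ENSMUSG00000022053, chr14:67233292-67430918, plus strand), a marker of fat cell precursors, was low and the most uneven of the members. It was at 1.05, 0.745 and 0.647 CPM in the HAT1 WT lines, and at 3.29, 1.15 and 0 CPM in the HAT1 KO lines. KO line 33 had the highest level and KO line 72 had 0 counts. That allows up to 0.0391 CPM (3 counts, for counting error only and if each count is independent). The fold change over all lines was 0.87 on the log2 scale with an SE of 1.34 (edgeR adjusted p = 0.811). It was 1.47 without KO line 72, with an unadjusted edgeR p of 0.0238, and -0.50 without KO line 33. The related factor Ebf1 was present in all lines at 45.1 to 72.6 CPM and Ebf3 at 2.22 to 7.87 CPM.

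Among the lipid genes, Cd36 (ENSMUSG00000002944, chr5:17781690-17888801, minus strand), the fatty acid and lipoprotein receptor of the cell surface, had the largest difference. It was at 42.1, 52.6 and 62.7 CPM in WT lines 36, 47 and 78. In KO lines 33, 41 and 72 it was at 22.4, 13.9 and 8.26 CPM. The highest HAT1 KO line was thus well under the lowest HAT1 WT line. HAT1 KO stood at 28.3% of the HAT1 WT mean, a log2 fold change of -1.82 (SE 0.37, unadjusted p = 0.00221, adjusted p = 0.113 in edgeR's quasi-likelihood test, exact permutation p = 0.1). The difference was -1.78 within lane 6 and -2.17 within lane 7 on the log2 scale. It was -1.52 without KO line 72. The unadjusted p stayed under 0.05 in each of 14 alternatives, which include the DESeq2 and voom tests.

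Lpl (ENSMUSG00000015568, chr8:68880491-68907448, plus strand), the secreted lipase, was at 136, 182 and 363 CPM in the HAT1 WT lines and at 106, 109 and 92.7 CPM in the HAT1 KO lines. All HAT1 KO lines were lower, but WT line 78 was far above its own group, whose SD reached 120 CPM around a mean of 227 CPM. The HAT1 KO mean was 103 ± 8.81 CPM (n = 3), or 45.2% of HAT1 WT. The log2 fold change was -1.15 (SE 0.36, unadjusted p = 0.0169, adjusted p = 0.234 in edgeR's quasi-likelihood test). Without WT line 78 it was -0.62, and the unadjusted edgeR p was 0.0094. Without KO line 72 it was -1.07, and with the Y-linked level as a covariate it was -2.29. Within lane 6 the difference was -0.87 and within lane 7 it was -1.73, so the direction held in both lanes while the size followed WT line 78.

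Plin2 (ENSMUSG00000028494, chr4:86648386-86670060, minus strand), a coat protein found on droplets in most cell types, was at 224, 207 and 154 CPM in HAT1 WT and at 125, 138 and 164 CPM in HAT1 KO. The groups overlapped, since KO line 72 was above WT line 78. The HAT1 KO mean was 72.9% of HAT1 WT, a log2 fold change of -0.46 (SE 0.17, unadjusted p = 0.0332, adjusted p = 0.301 in edgeR's quasi-likelihood test), which is under the 1.5-fold threshold. Against WT line 78 alone the log2 difference was -0.11, with the Y-linked level in edgeR's model it was 0.073, and without KO line 72 it was -0.56. The ratio of Cd36 to Plin2 was 0.188, 0.254 and 0.406 in HAT1 WT and 0.179, 0.101 and 0.0502 in HAT1 KO, so Cd36 was the lower of the pair relative to HAT1 WT.

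Fabp4 (ENSMUSG00000062515, chr3:10204088-10208576, minus strand), which is abundant in mature adipocytes, was low in every line. It was at 1.96, 1.59 and 1.29 CPM in HAT1 WT and at 1.30, 1.21 and 2.41 CPM in HAT1 KO, from 82 to 186 counts. KO line 72 was again the highest and the other HAT1 KO lines the low end, and the groups did not differ beyond the spread (log2 fold change 0.025, SE 0.34, edgeR adjusted p = 0.982). Without KO line 72 the log2 fold change was -0.35, with an unadjusted edgeR p of 0.243.

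Levels can be compared between genes only per length, here as CPM per kb of the longest principal mRNA. In HAT1 WT the order was Plin2 (103 ± 19.4 CPM per kb), Lpl (55.2 ± 29.2), Cebpa (32.9 ± 1.39), Cebpb (30.5 ± 3.87), Cd36 (15.4 ± 3.02), Cebpd (7.15 ± 0.482), Pparg (4.51 ± 0.902), Fabp4 (1.8 ± 0.374) and Ebf2 (0.156 ± 0.0401), each with n = 3. The lines of neighbours overlapped between Plin2 and Lpl, Lpl and Cebpa, and Cebpa and Cebpb, so they do not differ beyond the spread of the lines. In HAT1 KO the order was Plin2 (75.4 ± 10.6 CPM per kb), Cebpb (30.0 ± 4.37), Lpl (24.95 ± 2.14), Cebpa (16.4 ± 4.47), Cebpd (8.52 ± 3.66), Pparg (5.58 ± 3.63), Cd36 (4.37 ± 2.09), Fabp4 (1.83 ± 0.745) and Ebf2 (0.285 ± 0.321). There the lines overlapped between Cebpb and Lpl and between each pair of neighbours from Cebpa down to Fabp4. Cebpa stood below Cebpb in every HAT1 KO line, and the mean of Cd36, above that of Cebpd in HAT1 WT, was below it. Fabp4 and Ebf2 were the least abundant members in the mean of both genotypes.

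The range of each member over the 6 lines was set beside that of the other tested genes. Cd36 and Ebf2 each varied more than 98.4% of tested genes on the log2 scale, Lpl more than 95.7%, Cebpa more than 92.4% and Pparg more than 90.8%. Cebpb varied more than 43.6% and was the steadiest member. Over the HAT1 KO lines alone, Lpl dropped to 38.7%, while Ebf2 stood at 98.8%, Pparg at 94.2%, Cd36 at 94.0% and Cebpd at 90.7%. The wide range of Lpl was thus not found among the HAT1 KO lines, whereas Ebf2, Pparg, Cd36 and Cebpd were uneven there.

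The genes whose log2 levels followed Pparg most closely over the 6 lines, among 12350 genes with a mean of at least 1 CPM, were Pacsin3 (Pearson coefficient 0.992), Iffo2 (0.992), Gtf3c1 (0.991), Fah (0.990) and Lancl3 (0.988). KO line 72 was the highest line for Pparg and for each of these genes. Without that line the coefficients were 0.975, 0.958, 0.964, 0.951 and 0.946, for genes that had been picked with it included. With so few lines 125 genes passed 0.95, so the values are a description only.

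Other genes of the pathway were taken from lists written with earlier results of these data known. Of 18 further factors that promote adipogenesis, 7 were higher and 11 lower, with a median log2 fold change of -0.056. An unadjusted p under 0.05 was found for 3, all lower, beside 8.77% of all tested genes lower at that p. Nr1h3, the oxysterol receptor LXRα, was at 6.98 ± 1.07 CPM (n = 3) in HAT1 WT and 4.52 ± 0.709 CPM (n = 3) in HAT1 KO (log2 fold change -0.63, SE 0.19). Ppargc1a, the coactivator of mitochondrial genes, was at 0.325 and 0.103 CPM (log2 fold change -1.65, SE 0.44), a low level in both genotypes. Rxra, the partner with which PPARγ binds DNA, was at 144 and 127 CPM (log2 fold change -0.19, SE 0.066). By the study's thresholds 2 of these, Nr1h3 and Ppargc1a, were lower and 0 were higher, and the smallest adjusted p in the list was 0.193 in edgeR's quasi-likelihood test. Stat5a had a mean of 28.8 CPM in HAT1 KO that came from KO line 72 alone, at 53.9 CPM against 16.2 to 19.9 CPM in the other lines.

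Of 16 factors that hold back adipogenesis, 9 were higher and 7 lower, with a median of 0.062, and none had an unadjusted p under 0.05 in edgeR. The smallest p-values were those of Tgfb1, a growth factor that blocks fat cell formation (log2 fold change -0.32, SE 0.13, unadjusted p = 0.0503 in edgeR's quasi-likelihood fit), and Gata3 (1.46, SE 0.65, unadjusted p = 0.0631), which was at 7.19 CPM in KO line 72. Dlk1, the preadipocyte surface factor, was at 34.3 CPM in KO line 72 and at 85.2 to 363 CPM elsewhere.

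In the list for the lipid droplet and triglyceride, 16 of 19 genes were tested, 9 were higher and 7 lower, and the median was 0.014. None passed the study's thresholds. An unadjusted p under 0.05 was found for 2, both lower, beside 8.77% of all tested genes lower at that p. The hormone-sensitive lipase Lipe was at 6.41 ± 0.527 CPM (n = 3) in HAT1 WT and 4.65 ± 0.787 CPM (n = 3) in HAT1 KO (log2 fold change -0.46, unadjusted p = 0.0323 in edgeR's quasi-likelihood fit). The triglyceride lipase Pnpla2 was at 28.7 and 24.0 CPM (log2 fold change -0.26, unadjusted p = 0.0455). The synthetic enzymes Dgat1 and Dgat2 differed by 0.050 and 0.014 on the log2 scale. Plin4 had its high HAT1 KO value in line 72 alone, at 14.2 CPM against 1.92 to 3.24 CPM.

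Of 16 tested genes for fatty acid uptake and binding, 9 were higher and 7 lower, with a median of 0.068. Those with an unadjusted p under 0.05 were 4 lower genes and 1 higher gene. Lipa, the lysosomal acid lipase, was at 336 ± 6.90 CPM (n = 3) and 220 ± 40.0 CPM (n = 3), a log2 fold change of -0.61 (unadjusted p = 0.00315 in edgeR's quasi-likelihood fit). Slc27a1, a fatty acid transporter, fell short of the 1.5-fold threshold at -0.52, as did Acsl4, which activates fatty acids, at -0.34 and the endocytic receptor Lrp1 at -0.37. Cav1, the coat protein of caveolae, was higher in HAT1 KO, at 616 CPM against 392 CPM (log2 fold change 0.65, unadjusted p = 0.0186). In these 4 lists no gene had an adjusted p under 0.05. By the sign of the fitted change, the lists around the members held lower and higher genes in near equal number. Among their genes with an unadjusted p under 0.05 in edgeR, Cav1 alone was higher. Of all tested genes, 8.77% had such a p with a lower level in HAT1 KO. The share with such a p and a higher level was not counted. By the study's thresholds 4.62% of all tested genes were lower and 1.5% higher.

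**Figure D3:**
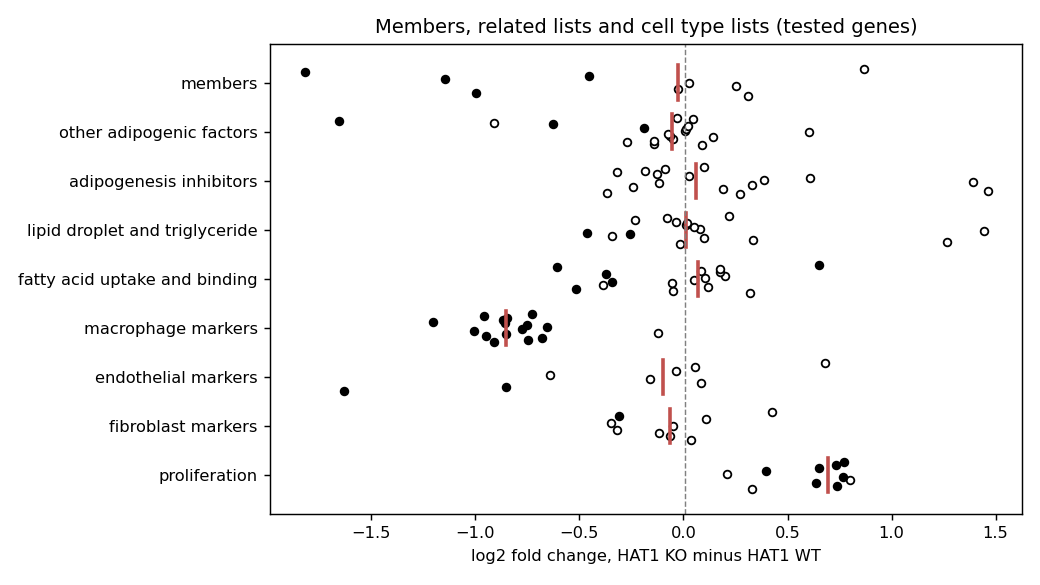
Log2 fold change, HAT1 KO minus HAT1 WT (horizontal axis), of each tested gene in the member list, the related lists and the cell type lists (rows, points spread vertically for legibility only); filled points have an unadjusted p under 0.05 in edgeR's quasi-likelihood fit, red bars mark the list medians and the dashed line the median of all tested genes. The macrophage markers lie on the lower side with a median of -0.85 and the proliferation genes on the higher side with a median of 0.69.

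Markers of cell types were read beside these results. Of 13 markers of mature adipocytes, 8 had a row and only Slc2a4, Adrb3 and Lipe passed the filter. Their summed level was 7.24 to 7.97 CPM in HAT1 WT and 4.84 to 7.5 CPM in HAT1 KO, most of it Lipe, while Plin1, which coats the large droplet of the adipocyte, was at 0.0633 and 0.0597 CPM. Plin1 and the other markers with a row that failed the filter were thus close to 0 in both genotypes, whereas Lipe was at 6.41 and 4.65 CPM. The 9 fibroblast markers summed to 60862 to 68784 CPM in HAT1 WT and 46341 to 78350 CPM in HAT1 KO, 3 higher and 6 lower. Among them 1 had an unadjusted p under 0.05 in edgeR (Thy1, log2 fold change -0.31), and Vim, at 0.42, had the next smallest p.

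Macrophage markers moved with the lower members. All 16 had a lower mean in HAT1 KO, 15 of them by the study's thresholds and 9 with an adjusted p under 0.05 in edgeR's quasi-likelihood test, with a median log2 fold change of -0.85. The exception was Cd14 (log2 fold change -0.12). Summed, they came to 6384, 6725 and 5954 CPM in WT lines 36, 47 and 78, against 3489, 3709 and 2921 CPM in KO lines 33, 41 and 72. Lyz2, the macrophage lysozyme, was at 2937 CPM in HAT1 WT and 1462 CPM in HAT1 KO, and Csf1r, the receptor that macrophages need to survive, was at 593 and 354 CPM. Macrophage transcripts were thus plentiful in every line, and lower in all HAT1 KO lines.

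The macrophage sum in HAT1 KO was well under that in HAT1 WT, so as a share of it a member with like CPM in both genotypes is higher in HAT1 KO. Cebpa was 1.38%, 1.32% and 1.38% of the summed macrophage markers in HAT1 WT and 1.35%, 1.41% and 1.03% in HAT1 KO, with overlap, and the HAT1 KO mean was 93.0% of HAT1 WT. Lpl was 2.13%, 2.71% and 6.10% in HAT1 WT and 3.04%, 2.94% and 3.17% in HAT1 KO, also with overlap. On this scale the separation of the genotypes seen for Cebpa and Lpl in CPM was gone. Cd36 was 0.660%, 0.782% and 1.05% in HAT1 WT and 0.641%, 0.375% and 0.283% in HAT1 KO, so its HAT1 KO lines still lay below and the mean was 52.1% of HAT1 WT. Plin2 turned round, from 3.51%, 3.09% and 2.59% to 3.59%, 3.71% and 5.62%. All HAT1 KO lines also lay above the HAT1 WT lines for Pparg (mean share 249% of HAT1 WT), Cebpd (234%), Fabp4 (200.5%) and Cebpb (189%), whereas the lines of Ebf2 overlapped. The part of the macrophage transcripts in the levels of Cebpa, Lpl, Plin2 and Cd36 was not tested beyond these ratios, which were chosen after the data had been seen.

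**Figure D4:**
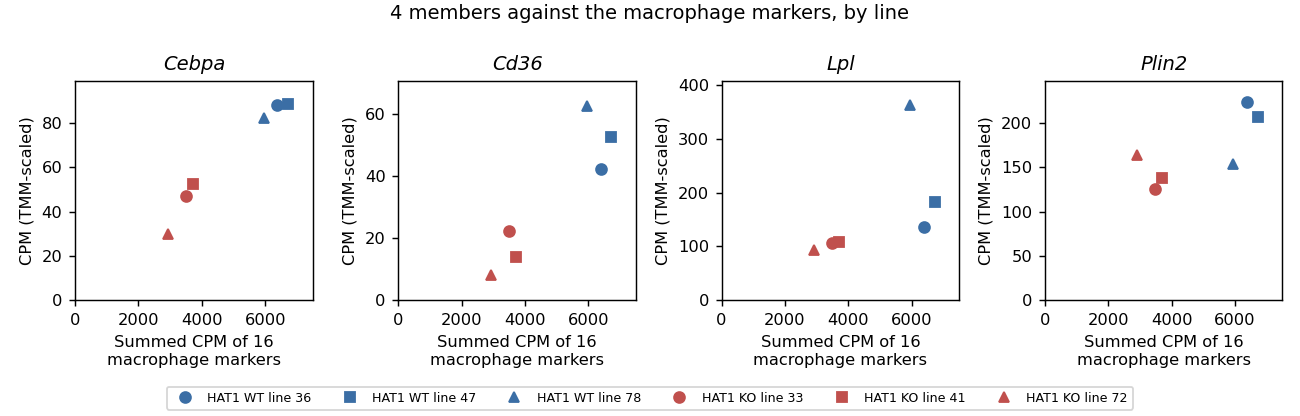
Level of Cebpa, Cd36, Lpl and Plin2 in TMM-scaled CPM (vertical axes, linear, from 0) against the summed CPM of 16 macrophage markers (horizontal axes, linear, from 0) in each of the 6 lines (points, 1 symbol per line). The HAT1 KO lines sit at 2921 to 3709 CPM of markers and the HAT1 WT lines at 5954 to 6725 CPM, and Cebpa is 1.03% to 1.41% of the marker sum in every line.

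Markers of other cells moved less evenly. Of 8 tested endothelial markers, 3 were higher and 5 lower. The junction proteins Pecam1 (log2 fold change -1.63) and Cdh5 (-0.85) were lower by the study's thresholds, both under 1 CPM on average in each genotype. The endothelial sum was 150 to 192 CPM in HAT1 WT and 50.4 to 145 CPM in HAT1 KO, lowest in KO line 72 and mostly Flt1. All 10 proliferation genes had a higher mean in HAT1 KO, 6 by the study's thresholds (among them Top2a, 0.74, Mcm5, 0.65, and Aurkb, 0.77 on the log2 scale), with summed levels of 462 to 692 CPM and 652 to 951 CPM. By the study's thresholds 4.62% of all tested genes were lower and 1.5% higher. The part of these cell type and cycle differences in the members' levels was not tested.

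**Figure D5:**
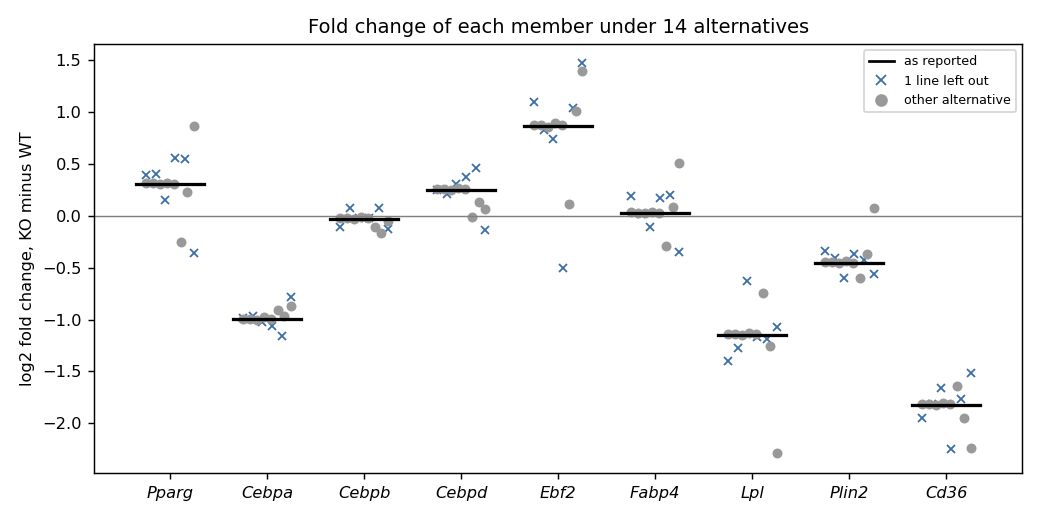
Log2 fold change, HAT1 KO minus HAT1 WT (vertical axis), of each member as reported (black lines), with 1 line left out (crosses) and under the other alternatives of the processing (grey points), 14 alternatives in all. Cebpa, Lpl and Cd36 stay below 0 under all of them, while Pparg, Cebpb, Cebpd, Ebf2, Fabp4 and Plin2 have points on both sides of 0.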

How the data were processed

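Total RNA of 6 pMEF lines was sequenced from TruSeq v2 libraries. The authors deposited raw read counts per gene, without normalization. They also deposited their own comparison of the genotypes (a log2 fold change and log2 mean CPM, an F score, and a p-value and q-value per gene), which was not used. The submitters' processing notes list edgeR and mm10. The aligner, counter, annotation and use of strand were not given in the sources used here. Genotypes and lines came from the labels, and every column of sample values matched a sample (0 unmatched). No 2 libraries held identical values. Of the counts from 1 to 10, 75.1% were even numbers, so single counts may not be independent, which was not tested.

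Differential expression was fitted in edgeR 4.0.16 under R 4.3.3 (filterByExpr, TMM, glmQLFit and glmQLFTest, genotype alone, two-sided, Benjamini-Hochberg adjustment over 14773 genes, threshold 0.05). Standard errors are the log2 fold change over the square root of F. The fit was run on simulated data in which all genes had the same dispersion and no line stood apart. That run therefore gives no error rates for these lines. Depth was 67720628 to 98786746 counts, so the spread between lines (common dispersion 0.0747) limits precision more than counting error. Likeness between libraries and to Pparg used log2(CPM + 0.5). Alternatives were DESeq2 1.42.0, voom with sample quality weights (limma 3.58.1), other scalings and filters, lane or the Y-linked level as covariate, and leaving out each line. Positions are from GENCODE M21 on GRCm38, matched by identifier.

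Members and lists were chosen with earlier results of these data known. Named genes were Hat1, the members, the genes of each list past the adjusted or the study's thresholds (where fewer than 2 passed, the 2 with the smallest p-values), and the 5 genes most like Pparg. Of the macrophage and proliferation genes that passed, only Lyz2, Csf1r, Top2a, Mcm5 and Aurkb were named, as examples. Genes named outside that rule (Rxra, Slc27a1, Acsl4, Lrp1, Cd14, Slc2a4, Ebf1, Ebf3, Stat5a, Dlk1, Dgat1, Dgat2, Plin4, Flt1, Plin1 and Xist) were chosen after their values were seen.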

Additional observations from a re-analysis of the deposited data

How the results depend on the processing

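Over 14 alternatives Cebpa, Lpl and Cd36 kept a lower level in HAT1 KO, and Lpl and Cd36 kept an unadjusted p under 0.05 in all of them. Adjusted p-values ran from 0.000283 to 0.679 for Cebpa, 0.0159 to 0.569 for Lpl and 1.8e-05 to 0.664 for Cd36, so the adjusted call depends on the method. The number of members past the adjusted threshold was 0 as reported, 3 with the DESeq2 Wald test (869 genes called in all, against 78 in edgeR), 2 with voom (267 in all) and 0 to 1 with 1 line left out, the 1 being Cebpa without KO line 72. All genes called fell to 2 with the lane and 0 with the Y-linked level as covariate. They were 91 with library size alone, 90 with a mean of at least 50 counts, 58 with DESeq2 size factors, 46 without a filter and 0 to 73 with 1 line left out.

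Members lower by the study's thresholds numbered 2 with the Y-linked level, where Cebpa had an unadjusted p of 0.0724, and 3 to 4 with 1 line left out. Lower members numbered 4 with voom. There, and without WT line 78, Plin2 joined Cebpa, Lpl and Cd36, at -0.60 and -0.59 on the log2 scale. Higher members numbered 0 to 1 with 1 line left out, the 1 being Ebf2 at 1.47 without KO line 72. The median of the members was -0.29 with voom, -0.16 with the lane, 0.071 with the Y-linked level and -0.37 to 0.073 with 1 line left out. With voom, log2 fold changes turned to -0.25 for Pparg, -0.0060 for Cebpd and -0.29 for Fabp4. Plin2 turned to 0.073 with the Y-linked level and to 0.49 relative to the macrophage markers, and lost its unadjusted call with the lane (-0.37) and without WT line 36, WT line 47, KO line 33 or KO line 41. It kept that call in 8 of the 14 alternatives, DESeq2 and voom among them. With 1 line left out the ranges were -0.36 to 0.56 for Pparg, -0.14 to 0.46 for Cebpd, -0.35 to 0.20 for Fabp4, -0.13 to 0.074 for Cebpb and -0.50 to 1.47 for Ebf2. The cause of these changes was not tested. Relative to the macrophage markers the log2 differences were -0.10 for Cebpa, -0.26 for Lpl and -0.94 for Cd36, an alternative added after seeing the data, as were the values within lanes. The Y-linked level is nearly tied to genotype, lanes 6 and 7 hold both genotypes and lane 8 a HAT1 WT line only, and leaving out a line leaves 2 lines in its group. No paired analysis was possible because the genotypes share no replicate numbers. Ebf2 and Fabp4 had the fewest counts of the members, and Ebf2 ranged from 0 to 293 counts among the HAT1 KO lines.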
